A study of Mus musculus with 18 samples.

Results

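The cholesterol synthesis and sterol transport genes examined here are 28 listed genes, taken by platform symbol with the probe set of the highest mean over all arrays for each gene. The platform annotation names a probe set for 27 of the 28, the exception being Acat2, and all 27 passed the filter on low values, among 17316 tested genes of 19938 genes that could be named. They comprise 6 measured enzymes of the mevalonate steps and 12 of the squalene and sterol steps. The others are 4 genes of the transcription factor SREBP and its control, and 5 sterol transport genes. The list rests on the genes' roles and was drawn up with earlier results of these data known.

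Total RNA of mouse intestine was hybridised to 18 Affymetrix arrays, 3 in each of 6 groups. Epithelial cells (IEC) and tumours of male and female animals were each taken from control mice with floxed Stat3 alleles (Stat3fl/fl) and from mice in which a Cre recombinase driven by the Villin promoter, active in intestinal epithelium, deletes Stat3 (titled Stat3-/-, called Stat3-deleted below). The series text places both genotypes of tumour mice on the APCmin/+ background, in which a mutant Apc allele gives tumours mainly in the small intestine, and asks whether Stat3 is needed for tumour progression. The sample labels instead carry, for every array and for the epithelial cells too, a text on azoxymethane/dextransulfate colorectal tumours. Neither the Apc genotype, the sex nor the age of the epithelial cell donors is labelled, and no age is given for the tumour mice. Nothing in the labels says whether arrays of a group came from separate animals, so p-values measure the spread between these arrays, which may be technical.

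Cells build cholesterol from acetyl-CoA, first through the mevalonate steps to isoprenoid units, then through squalene and lanosterol to the finished sterol. When membrane sterol is low, Scap carries SREBP-2, the product of Srebf2, from the endoplasmic reticulum to the Golgi for cleavage, and the released factor switches on genes of the whole route, while Insig proteins hold the complex back when sterol is plentiful. In the small intestine, absorptive enterocytes also take dietary sterol up through Npc1l1 and pump it back into the lumen through the paired transporters Abcg5 and Abcg8, while Abca1 exports cholesterol to lipoprotein particles.

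Several regulatory stretches of members are shown because their genes illustrate the main contrast: Hmgcs1, Idi1 and Nsdhl were higher in tumours, Mvk did not pass the test in tumours, and Abcg5 and Abcg8, both lower in tumours, start next to each other. The sequences are from RefSeq (GRCm38.p6), and an upstream window was kept for 23 of the 27 measured members. For members and all other genes alike, windows on a chromosome set aside beforehand, or not of full length, were left out. Each window holds up to 250 bases before the start site, without bases that lie in an annotated gene, for Mvk also those of the gene itself. Capitals mark CCAAT on either strand (read as ATTGG on the strand printed) and, in Hmgcs1 alone, the sterol regulatory element TCACNCCAC. The positions are chr13:119690101-119690350 on the plus strand for Hmgcs1, chr13:8885356-8885605 (plus) for Idi1, chrX:72918345-72918520 (plus) for Nsdhl, chr5:114444074-114444263 (plus) for Mvk and chr17:84683012-84683120 (plus) for the interval between Abcg5 and Abcg8.
Hmgcs1: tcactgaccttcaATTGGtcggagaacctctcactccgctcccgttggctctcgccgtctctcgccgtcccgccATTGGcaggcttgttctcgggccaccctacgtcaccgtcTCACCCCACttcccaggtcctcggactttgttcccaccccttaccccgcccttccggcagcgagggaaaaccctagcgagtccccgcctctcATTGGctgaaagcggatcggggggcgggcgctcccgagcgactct
Idi1: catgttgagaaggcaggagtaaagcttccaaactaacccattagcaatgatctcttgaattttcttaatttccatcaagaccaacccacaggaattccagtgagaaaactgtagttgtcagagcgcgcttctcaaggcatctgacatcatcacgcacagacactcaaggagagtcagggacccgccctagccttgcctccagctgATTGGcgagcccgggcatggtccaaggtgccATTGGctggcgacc
Nsdhl: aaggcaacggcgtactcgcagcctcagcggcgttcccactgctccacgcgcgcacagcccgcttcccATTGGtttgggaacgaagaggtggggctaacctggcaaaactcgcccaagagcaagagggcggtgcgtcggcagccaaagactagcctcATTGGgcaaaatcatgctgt
Mvk: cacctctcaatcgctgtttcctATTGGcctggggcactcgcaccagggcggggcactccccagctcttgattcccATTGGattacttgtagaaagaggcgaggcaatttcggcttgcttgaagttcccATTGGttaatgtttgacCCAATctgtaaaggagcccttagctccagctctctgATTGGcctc
Abcg5-Abcg8 interval: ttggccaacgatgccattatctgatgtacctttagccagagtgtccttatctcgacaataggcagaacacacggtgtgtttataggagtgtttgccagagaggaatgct

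The Hmgcs1 stretch holds 1 match to the sterol regulatory element, TCACCCCAC, on the plus strand with its first base at -137 from the start site, and 3 CCAAT matches. Idi1 and Nsdhl each hold 2 CCAAT matches in the stretches shown, and Mvk holds 5. Over whole windows of 250 bases, CCAAT on either strand was found in 20 of 23 members (87.0%) and in 37.5% of 27025 genes with a window. The GC box GGGCGG was found on either strand in 19 of 23 members (82.6%) and in 35.4% of genes. The palindromic E-box CACGTG was found in 6 of 23 (26.1%) and in 6.86% of genes, and the sterol regulatory element in 1 of 23 against 1.22% of genes. The letters of none of the 4 motifs contain those of another. The nearest start sites of Abcg5 and Abcg8, which point away from each other, lie 110 bases apart, and the 109 bases between them hold none of these 4 motifs. A match describes letters only and says nothing on whether a factor binds there.

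Stat3 itself separated the genotypes in each tissue, with no overlap of arrays: deletion lowered it by 1.96 (log2, 3.88-fold lower) in epithelial cells, 2.09 (4.25-fold) in male and 1.87 (3.65-fold) in female tumours (limma adjusted p = 1.23e-05, 4.7e-06 and 1.24e-05). Xist, expressed from the inactive X of females, measured 3.92 to 4.46 in the 6 epithelial arrays, 3.81 to 4.20 in male and 9.77 to 10.45 in female tumours. The Y-linked gene Eif2s3y measured 7.31 to 8.29 in epithelial arrays, 7.71 to 8.55 in male and 2.74 to 3.35 in female tumours. By both genes the epithelial arrays had the male pattern, so female tumours were compared with epithelial cells of male type. Pan-epithelial markers averaged 11.02 to 11.22 in epithelial arrays and 11.17 to 11.56 in tumours, so epithelial RNA was present throughout. Single markers did differ. In control mice 3 of 8 passed as higher in tumours (Krt18 by 1.82, Krt19 by 0.79 and Elf3 by 0.60), 1 passed as lower and 4 did not pass. Of the lists of other cell types, all but that of T and NK cells were higher in tumours. The fibroblast list averaged 6.57 to 7.09 in epithelial arrays and 9.0 to 10.53 in tumours, the endothelial list 5.18 to 5.47 and 7.19 to 7.89. The macrophage list averaged 5.87 to 6.34 and 7.15 to 9.12, the smooth muscle list 6.14 to 6.6 and 7.77 to 9.48. The B and plasma cell list averaged 6.13 to 6.57 and 7.0 to 8.43. The T and NK cell list ran the other way, at 6.79 to 9.06 in epithelial arrays and 5.63 to 6.71 in tumours.

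Some arrays stood apart from their groups. Replicate 8, a control male tumour, had the lowest mean over proliferation markers of the 12 tumours (7.87, against 8.57 to 9.19 in the other tumours) and the highest mean over ileum genes (9.59, against 6.27 to 7.93). Replicates 9 and 15, control tumours of a male and a female, carried the colon genes Hoxd13 (8.25 and 9.10, against 4.82 to 5.59 in the other tumours) and Car1 (10.90 and 10.24, against 4.36 to 8.40), with low Gata4 (6.92 and 6.84), a gene of the proximal small intestine. Replicate 4, Stat3-deleted epithelial cells, had a mean of 9.06 over T and NK cell markers, against 6.79 to 7.87 in the other epithelial arrays. Calls and medians that change without these arrays are given both ways where they are described.

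The comparison of tumours with epithelial cells asks how the sterol genes differ between bulk tumours, with their other cell types, and epithelial cells. In control mice, most of the synthesis route was higher in tumours: 14 of 18 synthesis enzymes rose, from 0.55 for Hsd17b7 to 1.47 for Fdft1 on the log2 scale, along with the regulators Srebf2 and Scap. The intestinal sterol transporters Abcg5, Abcg8 and Npc1l1 fell by 2.24 to 2.96. Among all 27 members, 16 were higher and 3 lower at an adjusted p under 0.05 (limma, Benjamini-Hochberg over all tested genes), where 30.4% of all tested genes were higher and 35.3% lower. The median difference was 0.77 over the members and 1.05 over the synthesis enzymes, against -0.08 over all tested genes.

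In Stat3-deleted mice, 16 members were again higher and 3 lower, against 30.3% and 36.2% of all tested genes. Of the members, 15 were higher in both genotypes, 3 were lower in both and 7 passed in neither. Dhcr7 passed as higher in control mice alone and Msmo1 in deleted mice alone. These comparisons share no array, and the test of their difference is the interaction described further on, which no member passed. With respect to single arrays, 11 members in control mice had every tumour above every epithelial array and 2 had every tumour below, against 24.8% and 26.3% of all tested genes, and 15 and 4 did so in deleted mice, against 27.1% and 28.8%. In these bulk samples, fewer cells of a type and less RNA per cell cannot be told apart. In control mice, 8 of 9 fibroblast, 8 of 8 endothelial and 9 of 9 macrophage markers were higher in tumours. So were 6 of 7 smooth muscle and 4 of 5 B and plasma cell markers, while 1 fibroblast and 1 smooth muscle marker passed as lower. Of 12 T and NK cell markers, 5 were lower in tumours in control mice and 11 in deleted mice, and none was higher in either. The part of these markers in the members' differences was not tested.

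**Figure D1:**
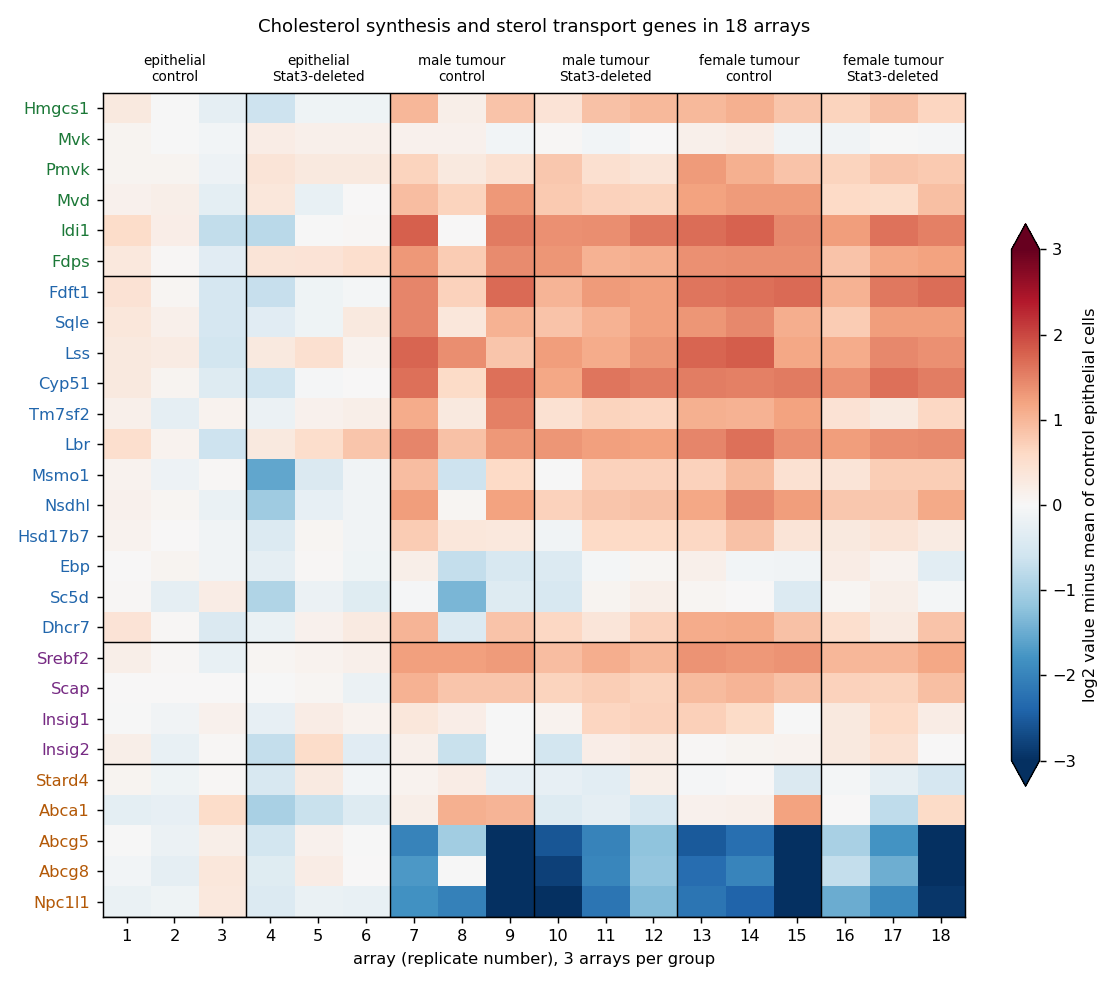
Log2 value of each of 27 members in 18 arrays, as the difference from the mean of the 3 control epithelial arrays (colour scale from -3 to 3, darker beyond), with gene names in green for mevalonate steps, blue for squalene and sterol steps, purple for SREBP control and brown for sterol transport. Most synthesis rows are red in arrays 7 to 18, mostly paler in array 8. The 3 rows of Abcg5, Abcg8 and Npc1l1 are blue in nearly all tumours, darkest in arrays 9 and 15.

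**Figure D2:**
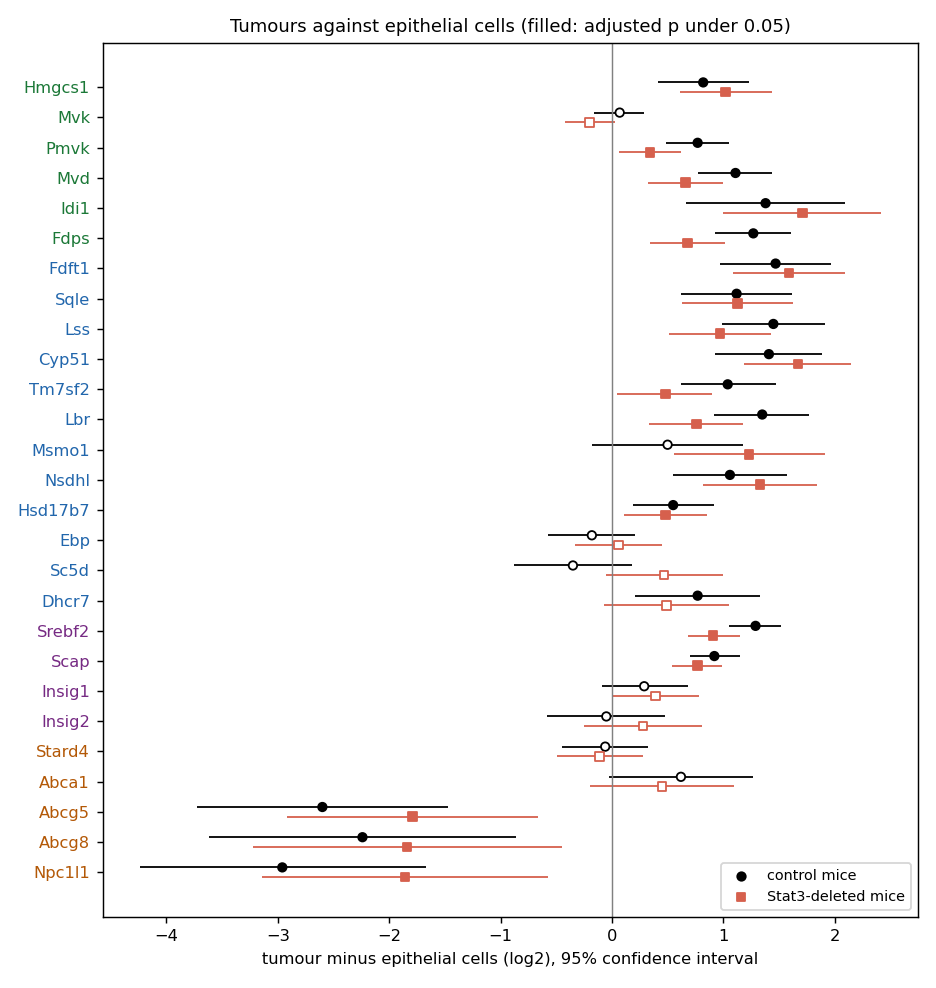
Difference of tumours from epithelial cells (log2) with its 95% confidence interval for each member, in control mice (black circles) and Stat3-deleted mice (red squares). Filled symbols passed an adjusted p of 0.05, with gene names coloured by role as in the heat map. Of 27 members, 16 lie above 0 and 3 below with filled symbols in each genotype.

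Of the 6 measured mevalonate enzymes, 5 rose in tumours of each genotype, with a median difference of 0.96 in control and 0.67 in deleted mice. Idi1, the isomerase that makes both isoprenoid building blocks available, measured 8.80, 8.45 and 7.52 in control epithelial cells and 10.05, 8.26, 9.82, 9.93, 10.03 and 9.70 in control tumours (replicates 7, 8, 9, 13, 14 and 15). Array 8 alone fell within the epithelial range and the other 5 tumours lay above it. The difference was 1.38 ± 0.33 (SE, 3 against 6 arrays, adjusted p = 0.00229), or 2.60-fold. In deleted mice Idi1 measured 7.45, 8.25 and 8.30 in epithelial cells and 9.62, 9.65, 9.83, 9.51, 9.89 and 9.77 in tumours. Every tumour was above every epithelial array there, and the difference was 1.71 ± 0.33 (adjusted p = 0.000464). The other Idi1 probe set gave 1.31 and 1.71.

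Fdps, which joins isoprenoid units into farnesyl diphosphate, measured 8.73, 8.46 and 8.07 in control epithelial cells and 9.71, 9.19, 9.83, 9.78, 9.81 and 9.82 in control tumours. The groups did not overlap, and the difference was 1.27 ± 0.16 (adjusted p = 1.1e-05). In deleted mice Fdps measured 8.80, 8.83 and 8.93 in epithelial cells and 9.28 to 9.74 in tumours, a difference of 0.68 ± 0.16 (adjusted p = 0.00184), again without overlap. Mvd, the decarboxylase that ends the mevalonate stretch, measured 7.97, 8.0 and 7.53 in control epithelial cells and 8.51 to 9.13 in control tumours, with no overlap and a difference of 1.11 (2.15-fold). Its difference in deleted mice was 0.66.

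Hmgcs1, the cytosolic synthase that commits acetyl units to the route, measured 9.69, 9.37 and 9.11 in control epithelial cells and 10.39, 9.57, 10.25, 10.37, 10.45 and 10.23 in control tumours. Array 8 again fell inside the epithelial range, and the difference was 0.82 ± 0.20 (adjusted p = 0.00202). In deleted mice its 6 tumours, at 9.79 to 10.36, all lay above the epithelial arrays at 8.78 to 9.27, by 1.02. Pmvk, the kinase that acts after Mvk, rose by 0.77 in control and by 0.34 in deleted mice, without overlap in either. Its call in deleted mice was lost without any 1 of replicates 5, 6, 10, 17 and 18. Mvk, the first kinase, was the member of the stretch that did not pass: it ranged from 7.58 to 7.75 in control epithelial cells and from 7.54 to 7.87 in control tumours. Its difference was 0.07 (95% confidence interval -0.16 to 0.29) in control and -0.20 (-0.42 to 0.03) in deleted mice. Every tumour of the deleted mice, at 7.55 to 7.70, nevertheless lay below every epithelial array, at 7.80 to 7.87. Mvk passed there as lower when the arrays were quantile normalised again and with limma's array weights, which weight each array by its agreement with its group.

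Of the 12 enzymes of the squalene and sterol steps, 9 rose in each genotype, with a median difference of 1.05 in control and 0.86 in deleted mice. Fdft1, the squalene synthase and the first step given over to sterols, measured 9.51, 9.14 and 8.58 in control epithelial cells and 10.55, 9.76, 10.78, 10.68, 10.74 and 10.77 in control tumours. All tumours lay above all epithelial arrays, by 1.47 ± 0.24 (2.77-fold, adjusted p = 8.94e-05). In deleted mice the epithelial arrays measured 8.39, 8.95 and 9.01 and the tumours 10.09 to 10.75, a difference of 1.59 ± 0.24 (adjusted p = 6.09e-05). Sqle, the squalene epoxidase another slow step of the route, measured 8.96, 8.77 and 8.12 in control epithelial cells and 8.95 in array 8, with 9.65 to 10.08 in the other 5 control tumours. It rose by 1.12 in control and by 1.13 in deleted mice.

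Lss, which closes the ring to lanosterol, measured 6.95, 6.90 and 6.09 in control epithelial cells and 8.39, 8.03, 7.47, 8.40, 8.47 and 7.81 in control tumours. The lowest tumour value was that of array 9 rather than array 8, and the groups did not overlap. The difference was 1.45 ± 0.22 (adjusted p = 5.12e-05) in control and 0.97 ± 0.22 (adjusted p = 0.00124) in deleted mice. Cyp51, the lanosterol demethylase, measured 7.88, 7.69 and 7.22 in control epithelial cells and 9.24, 8.16, 9.26, 9.14, 9.10 and 9.15 in control tumours. The other 5 tumours lay between 9.10 and 9.26, and array 8 lay between them and the epithelial cells. The difference was 1.41 ± 0.23 (adjusted p = 8.92e-05) in control and 1.67 ± 0.23 (adjusted p = 3.07e-05) in deleted mice.

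Tm7sf2 and Lbr are sterol reductases that can carry out the same step after Cyp51, Lbr being also a protein of the inner nuclear membrane. Lbr rose by 1.35 ± 0.20 in control and 0.76 ± 0.20 in deleted mice, and Tm7sf2 by 1.04 ± 0.20 and 0.48 ± 0.20. Neither overlapped between tissues in either genotype. The call of Tm7sf2 in deleted mice, at an adjusted p of 0.0463 (limma), was lost in 10 of 22 alternatives, including without any 1 of replicates 4, 5, 6, 11, 12, 16 and 18. Nsdhl, an X-linked dehydrogenase of sterol demethylation, rose by 1.06 and 1.33, and Hsd17b7, the reductase of the same complex, by 0.55 and 0.48. Without replicate 3 Hsd17b7 no longer passed in control mice (0.50, limma adjusted p = 0.0522), nor in deleted mice without replicate 4 (0.35, adjusted p = 0.131) or without replicate 11.

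Msmo1, the methylsterol oxidase, measured 10.43, 10.19 and 10.38 in control epithelial cells and 11.26, 9.71, 10.93, 11.02, 11.28 and 10.80 in control tumours. Array 8 lay below all 3 epithelial arrays and the other 5 tumours above them. The difference of 0.50 (95% confidence interval -0.18 to 1.18, adjusted p = 0.175) did not pass, and without replicate 8 it was 0.73 (adjusted p = 0.023). In deleted mice Msmo1 measured 8.78, 9.91 and 10.23 in epithelial cells and 10.33 to 11.08 in tumours, and the difference of 1.23 (adjusted p = 0.0033) fell to 0.80 (adjusted p = 0.0401) without replicate 4, the array with the high T and NK cell marker values. Their part in it was not tested.

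Of the last steps, Dhcr7 rose in control mice, and Ebp and Sc5d did not pass in either genotype. Dhcr7, the final reductase, measured 8.57, 8.19 and 7.72 in control epithelial cells and 9.19, 7.74, 9.01, 9.28, 9.29 and 9.04 in control tumours, a difference of 0.77 (limma adjusted p = 0.0182). Without replicate 3 it was 0.55 (adjusted p = 0.125), and without replicate 8 it was 0.99 (adjusted p = 0.000313). In deleted mice the Dhcr7 difference of 0.49 did not pass (adjusted p = 0.11), and it passed without replicate 8, at an adjusted p of 0.0245 with the same difference. Ebp, an X-linked isomerase, differed by -0.18 (95% confidence interval -0.57 to 0.21) and 0.06 (-0.33 to 0.45). Sc5d, the desaturase before Dhcr7, differed by -0.35 (-0.88 to 0.18) in control and 0.47 (-0.05 to 1.0) in deleted mice. Sc5d measured 10.12, 9.83 and 10.32 in control epithelial cells and 9.68 to 10.14 in 5 control tumours, with 8.72 in array 8. Without replicate 8, Sc5d passed in deleted mice with the same difference.

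Of the 4 genes of SREBP and its control, Srebf2 and Scap rose and neither Insig gene passed in either genotype. Srebf2 measured 9.08, 8.94 and 8.68 in control epithelial cells and 10.14, 10.12, 10.17, 10.24, 10.20 and 10.25 in control tumours. The 6 tumours lay within a narrow band, array 8 included, and above every epithelial array. The difference was 1.29 ± 0.11 (2.44-fold, adjusted p = 3.12e-07), the smallest adjusted p among the members. In deleted mice Srebf2 measured 8.97, 9.0 and 9.06 in epithelial cells and 9.82, 9.98, 9.87, 9.90, 9.90 and 10.07 in tumours, without overlap, a difference of 0.91 ± 0.11 (adjusted p = 1.27e-05).

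Scap, the escort of SREBP, measured 7.80 in each of 3 control epithelial arrays and 8.63 to 8.84 in control tumours, and 7.62 to 7.86 and 8.46 to 8.71 in deleted mice. The groups did not overlap, with differences of 0.92 ± 0.11 (adjusted p = 4.79e-06) and 0.77 ± 0.11. Insig1, which retains SREBP and is itself a sterol-controlled gene, measured 9.99, 9.90 and 10.13 in control epithelial cells and 10.35, 10.20, 9.99, 10.72, 10.57 and 9.99 in control tumours. Arrays 9 and 15 were the lowest tumours, and the difference was 0.29 (95% confidence interval -0.09 to 0.68, adjusted p = 0.167). In deleted mice it was 0.39 (0.00 to 0.78, adjusted p = 0.0709). Insig1 passed without arrays 9 and 15 in both genotypes. Neither array enters the comparison in deleted mice, so the difference there was unchanged and the call came through the fit shared by all groups. Insig2 differed by -0.05 (-0.58 to 0.48) and 0.28 (-0.25 to 0.81), and it passed in deleted mice without replicate 5. Insig1 also passed there without replicate 10.

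**Figure D3:**
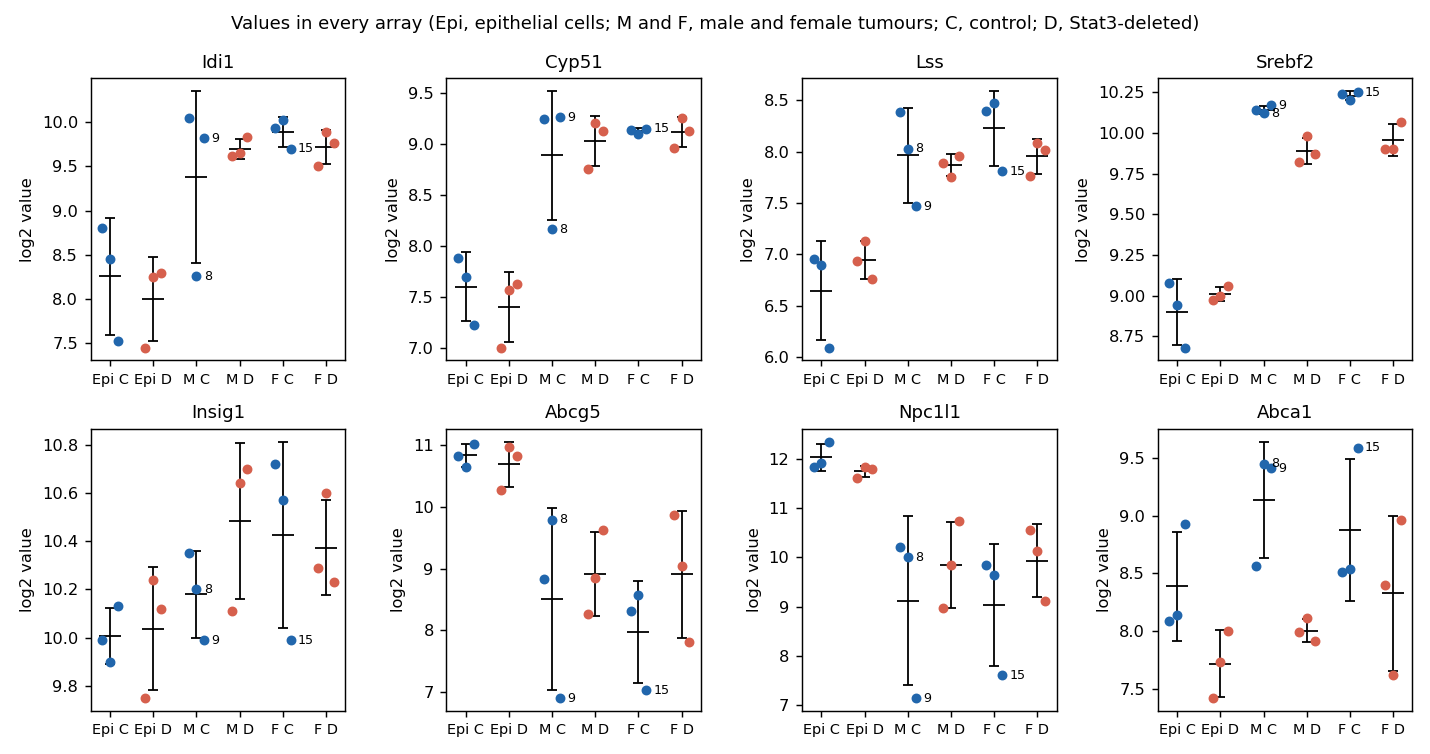
Log2 value of 8 members in every array, by group (points: control blue, Stat3-deleted red; horizontal mark and bar: mean ± SD of 3 arrays), with control tumours 8, 9 and 15 labelled. Array 8 lies near the epithelial values for Idi1 but not for Srebf2, and arrays 9 and 15 hold the lowest Abcg5 and Npc1l1 values.

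The sterol transport genes ran the other way. Npc1l1, the sterol uptake protein of the brush border, measured 11.84, 11.91 and 12.35 in control epithelial cells and 10.21, 10.01, 7.15, 9.85, 9.64 and 7.61 in control tumours. Every tumour was below every epithelial array, and arrays 9 and 15 were the lowest. The difference was -2.96 ± 0.61 (7.77-fold lower, adjusted p = 0.000682). In deleted mice Npc1l1 measured 11.62, 11.83 and 11.80 in epithelial cells and 8.97, 9.84, 10.73, 10.55, 10.13 and 9.11 in tumours, a difference of -1.86 ± 0.61 (adjusted p = 0.0135).

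Abcg5, a subunit of the sterol efflux pump, measured 10.83, 10.65 and 11.02 in control epithelial cells and 8.83, 9.79, 6.90, 8.31, 8.57 and 7.03 in control tumours, a fall of every tumour below every epithelial array. The difference was -2.60 ± 0.53 (6.05-fold lower, adjusted p = 0.000684), and -1.79 ± 0.53 (adjusted p = 0.00803) in deleted mice, where tumours measured 7.81 to 9.86 and epithelial cells 10.28 to 10.97. Abcg8, its partner, measured 10.03, 9.85 and 10.46 in control epithelial cells and 8.40, 10.09, 6.29, 7.83, 8.14 and 6.48 in control tumours. Array 8 was inside the epithelial range and the other 5 were below it. The difference was -2.24 ± 0.65 (adjusted p = 0.00731), and -1.84 ± 0.65 (adjusted p = 0.0209) in deleted mice, a call that was lost without replicate 5 or replicate 6.

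The transporter values moved with regional and enterocyte markers. Arrays 9 and 15 had enterocyte marker means of 8.76 and 8.53, against 10.14 to 11.43 in the other tumours and 12.09 to 12.58 in epithelial cells, and all 13 enterocyte markers were lower in control tumours than in control epithelial cells. In deleted mice 5 of the 13 passed as lower. Lct, the lactase of the brush border, differed by -4.46 and Treh, the trehalase, by -3.79 in control tumours (limma adjusted p = 7.18e-05 and 4.3e-05). Without arrays 9 and 15 the differences in control mice were -1.96 for Abcg5, -1.50 for Abcg8 and -2.11 for Npc1l1 (limma adjusted p = 0.000947, 0.0202 and 0.000197). The part of the enterocyte markers in these falls was not tested.

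Abca1, the exporter of cholesterol to lipoproteins, measured 8.09, 8.14 and 8.93 in control epithelial cells and 8.56, 9.45, 9.41, 8.51, 8.54 and 9.59 in control tumours. The 3 high tumours were arrays 8, 9 and 15, and the difference of 0.62 (95% confidence interval -0.03 to 1.27, adjusted p = 0.0835) did not pass. Without replicate 3 it was 0.89 and passed (limma adjusted p = 0.0385), as it did without replicate 7. Without arrays 4, 8, 9 and 15 together, which leaves replicate 7 as the only male control tumour, it was 0.15. Stard4, a carrier that moves sterol between membranes, differed by -0.06 (-0.45 to 0.32) and -0.11 (-0.49 to 0.28), with values of 9.21 to 9.98 in epithelial cells and 9.19 to 9.93 in tumours.

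Array 8 was the clearest exception among tumours. It had the lowest value of the 12 tumours for 14 of 18 synthesis enzymes, and 10 of its 18 values fell within or below the range of the 6 epithelial arrays. Its mean over the 18 enzymes was 8.52, where the other 11 tumours had 8.94 to 9.45 and the epithelial arrays 8.01 to 8.56. Its Srebf2 (10.12) and Scap (8.63) values, in contrast, were those of the other tumours. Among epithelial arrays, the lowest means belonged to replicates 3 and 4 (8.05 and 8.01), which held the lowest value of 8 and 9 of the enzymes. Proliferation marker means followed a like order, lowest in replicates 3 and 4 (6.80 and 7.35) and, among tumours, in replicate 8. All 12 proliferation markers were higher in control tumours than in control epithelial cells (median 1.55), and their part in the synthesis differences was not tested. Without replicate 8, the number of synthesis enzymes higher in control tumours was 15 of 18 and the median difference 1.20.

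**Figure D4:**
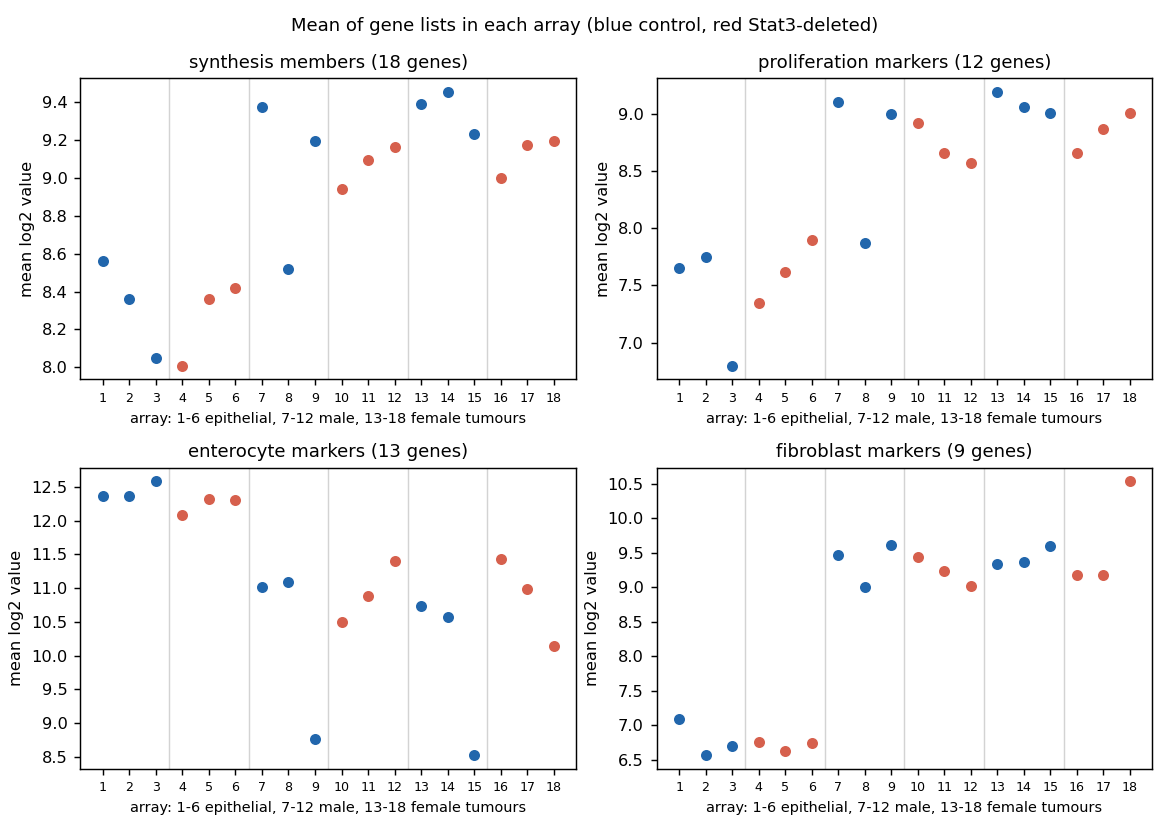
Mean log2 value in each of 18 arrays over the 18 synthesis enzymes, 12 proliferation markers, 13 enterocyte markers and 9 fibroblast markers (control blue, Stat3-deleted red; vertical lines separate groups of 3). Array 8 is the lowest tumour for the synthesis and the proliferation mean, and arrays 9 and 15 are the lowest for the enterocyte mean.

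The synthesis enzymes also varied together within groups. As a description over 18 arrays after removing each group's mean, arrays which share their hybridisation and normalisation, the median Pearson correlation over 153 pairs of synthesis enzymes was 0.53, and 140 pairs were above 0. The correlation with the mean of the other synthesis enzymes was 0.97 for Idi1, 0.94 for Cyp51, 0.93 for Sqle and 0.92 for Hmgcs1, and exceeded 0.7 for 11 of the 18. It was lowest for Mvk (0.09), Mvd (0.29), Lss (0.32) and Pmvk (0.39). Without replicate 8, the values of Idi1 and Cyp51 were 0.96 and 0.90, while those of Tm7sf2 moved from 0.63 to 0.37 and of Sc5d from 0.71 to 0.55. Over all tested genes the median correlation with the synthesis mean was -0.08. Among transporters, Abcg5 and Abcg8 varied with a correlation of 0.99, Abcg5 and Npc1l1 with 0.92, and Abcg8 and Npc1l1 with 0.89, in groups where arrays 9 and 15 were far from the rest.

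No member passed the threshold for Stat3 deletion in any tissue. In epithelial cells 0 of 27 members passed (limma, 0.0231% of all tested genes), in male tumours 0 (0.231%), in female tumours 0 (0.104%) and over both sexes 0 (0.71%). At an unadjusted p under 0.05 the counts were 3 for epithelial cells (6.8% of all tested genes), 1 for tumours of males (7.52%), 2 for those of females (5.03%) and 5 over both sexes (12%). With array weights, which give little weight to replicates 8 and 4, 2 members passed as higher in epithelial cells (Fdps and Lbr), where 3.26% of all tested genes did. As lower, 5 members passed in female tumours (2.73% of all tested genes), 5 over both sexes (5.47%) and none in male tumours (0.156%). The median difference over the 18 synthesis enzymes was -0.09 for epithelial cells, 0.06 for tumours of males and -0.23 for those of females. For epithelial cells it was 0.06 without replicate 1, 0.01 without replicate 4 and -0.19 without replicate 3. For tumours of males it was -0.20 without replicate 8, with 16 of 18 enzymes below 0. It was 0.18 without replicate 7, with 14 of 18 above 0, and 0.13 without arrays 9 and 15, with 13 of 18 above 0. Leaving out arrays 4, 8, 9 and 15 together gave -0.30, with replicate 7 as the only male control left. The median for tumours of females was -0.29 without arrays 9 and 15.

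In epithelial cells, the 3 members with an unadjusted p under 0.05 were Lbr (0.55), Fdps (0.43) and Pmvk (0.32), each at an adjusted p of 0.722. Fdps measured 8.73, 8.46 and 8.07 in control cells and 8.80, 8.83 and 8.93 in deleted cells. Every deleted array was above every control, an order that 6.3% of all tested genes shared. Lbr measured 8.40, 8.01 and 7.28 against 8.18, 8.43 and 8.74, and the groups overlapped. At the other end Msmo1 differed by -0.69 (95% confidence interval -1.48 to 0.09), with 8.78 in replicate 4 as the lowest value. Srebf2 differed by 0.11 (-0.16 to 0.38), Npc1l1 by -0.29 (-1.77 to 1.20) and Abcg5 by -0.14 (-1.45 to 1.16). All 12 T and NK cell markers had positive differences here (median 1.28, 0 past the threshold), and their part in the members' differences was not tested.

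**Figure D5:**
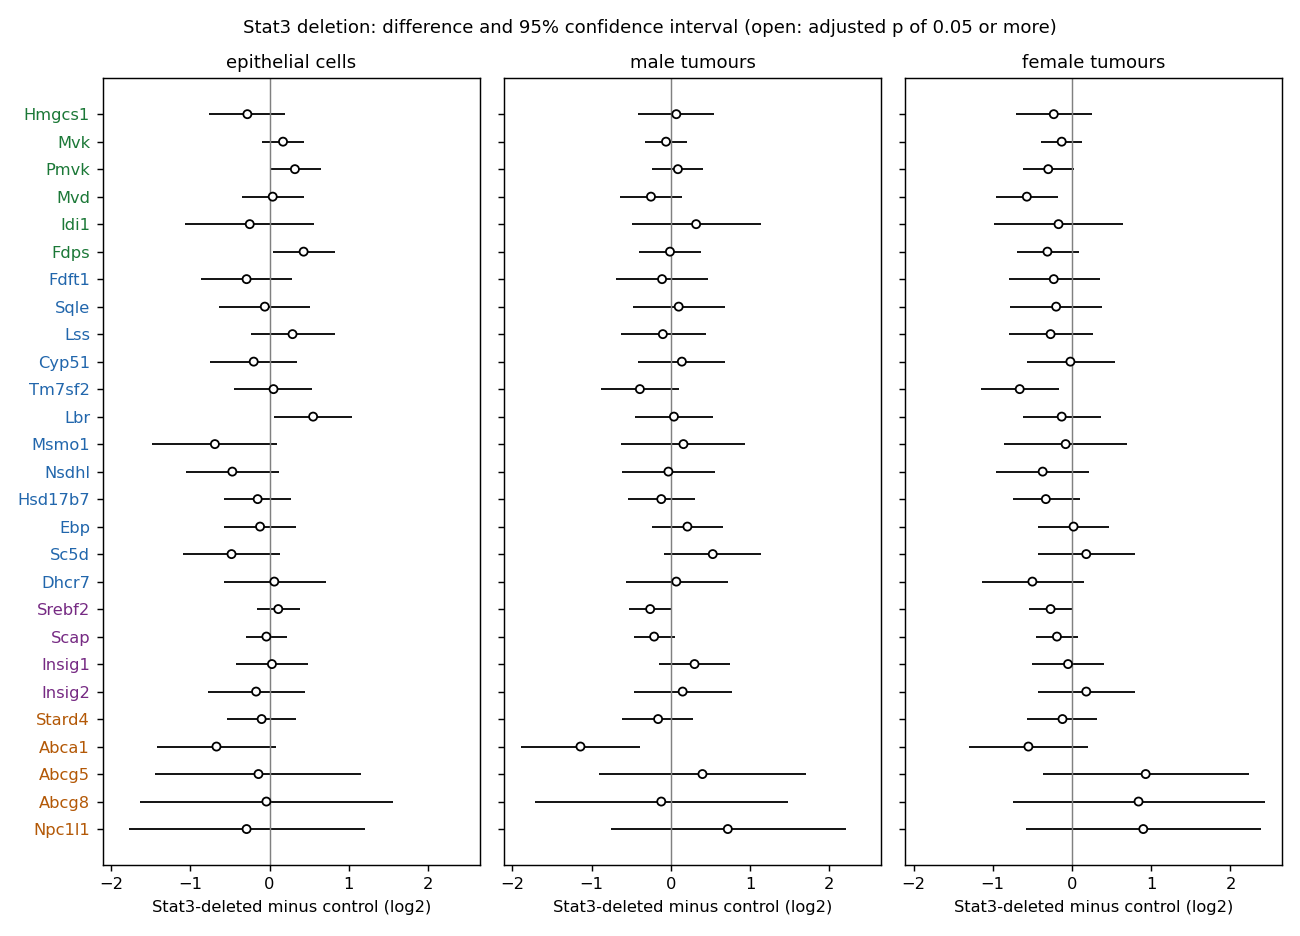
Difference of Stat3-deleted from control arrays (log2) with its 95% confidence interval for each of 27 members, shown for epithelial cells and for tumours of each sex, 3 against 3 arrays each. All symbols are open, since no member passed an adjusted p of 0.05, and the widest intervals are those of Abcg5, Abcg8 and Npc1l1.

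Over both sexes and in male tumours, Abca1 had the smallest adjusted p among members. In male tumours it measured 8.56, 9.45 and 9.41 in controls and 7.99, 8.11 and 7.91 in deleted arrays. Every deleted array was below every control, an order that 8.03% of all tested genes shared. The difference was -1.14 (95% confidence interval -1.89 to -0.39, limma adjusted p = 0.368). In female tumours Abca1 measured 8.51, 8.54 and 9.59 against 8.40, 7.62 and 8.96, with overlap, a difference of -0.55 (-1.30 to 0.20, adjusted p = 0.997), where Mvd (0.673) and Tm7sf2 (0.731) had smaller adjusted p-values (limma). Over both sexes the Abca1 difference was -0.84 ± 0.25 (limma adjusted p = 0.148), and it was -0.60 without control arrays 9 and 15. Without arrays 4, 8, 9 and 15, with replicate 7 as the only male control left, it was -0.37.

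Srebf2 differed by -0.26 ± 0.09 over both sexes (adjusted p = 0.224, limma). All 6 deleted tumours, at 9.82 to 10.07, were below all 6 control tumours, at 10.12 to 10.25, an order that 1.14% of all tested genes shared. Tm7sf2 measured 8.89, 8.06 and 9.29 in male controls, 8.23, 8.43 and 8.41 in male deleted tumours, 8.83, 8.81 and 8.98 in female controls and 8.19, 8.07 and 8.39 in female deleted tumours. Array 8 was the one control below the deleted tumours of its sex. The Tm7sf2 difference over both sexes was -0.52 ± 0.16 (limma adjusted p = 0.178), and without replicate 8 it was -0.69 and passed (adjusted p = 0.00816), the 1 member that did so. Mvd differed by -0.41 ± 0.13 (limma adjusted p = 0.183) over both sexes. In female tumours it differed by -0.57, with every deleted array below every control, an order that 10.4% of all tested genes shared. Scap, at -0.20, was the fifth with an unadjusted p under 0.05.

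The intestinal transporters did not pass between genotypes of tumour. Over both sexes Abcg5 differed by 0.67 (95% confidence interval -0.25 to 1.59), Abcg8 by 0.36 (-0.77 to 1.49) and Npc1l1 by 0.81 (-0.24 to 1.86). Without control arrays 9 and 15 these were 0.03, -0.38 and -0.04. In these tumours 12 of 13 enterocyte markers had positive differences (median 0.79, 0 past the threshold).

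The tests between comparisons gave no member either. The difference of the deletion effect between tumours and epithelial cells passed for 0 of 27 members (limma, 0.0116% of all tested genes, and 4 of 27 at an unadjusted p under 0.05, against 9.38%), with Fdps at -0.59 (adjusted p = 0.503) and Srebf2 at -0.38 (adjusted p = 0.506). The difference between female and male tumours passed for 0 members and 0% of all tested genes (limma), and 0 members had an unadjusted p under 0.05, against 0.936%. All 18 synthesis enzymes had a more negative effect in females (median difference -0.28), and without replicate 8 this was 9 of 18 with a median of 0.00. Male and female tumours, averaged over genotypes, differed in 0 members (limma, 0.0231% of all tested genes). The 1 member at an unadjusted p under 0.05, against 6.13% of all tested genes, was Pmvk, lower in males by 0.40 on the log2 scale (adjusted p = 0.749).

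Of 60 other listed genes of the pathway, 45 could be named and tested, and in control mice 18 were higher and 9 lower in tumours, against 30.4% and 35.3% of all tested genes. The fatty acid targets of SREBP-1 led the rises, with 7 of 11 higher: the desaturases Scd1 (5.04), Scd2 (3.49) and Fads1 (2.73) and the fatty acid synthase Fasn (2.53). Scd1 measured 3.93 to 5.24 in epithelial arrays, close to the 25th percentile of all probe sets (4.30 to 4.57), and 8.70 to 10.22 in tumours. The largest falls were Mttp (-1.99) and Apob (-1.88), which assemble lipoproteins in enterocytes, Nr1h3 (-1.71), the sterol sensor LXR alpha, and Erlin1 (-1.58), an endoplasmic reticulum protein that takes part in control of sterol synthesis. In deleted mice 20 were higher and 7 lower, against 30.3% and 36.2%, led by Scd1 (4.38), Scd2 (2.86), Fads1 (2.51) and Elovl5 (1.87), a fatty acid elongase, and by Nr1h3 (-1.32), Cyp27a1 (-1.20), Rxra (-0.88) and Erlin1 (-0.79). The Erlin1 call in deleted mice was lost without replicate 5.

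Stat3 deletion passed for 1 of these 45 genes, over tumours of both sexes, against 0.71% of all tested genes. At an unadjusted p under 0.05 (limma) the count there was 14 of 45, against 12% of all tested genes. Cyp27a1, which makes an oxysterol and bile acid precursor from cholesterol, measured 8.40, 9.50 and 9.30 in male and 8.45, 8.36 and 9.07 in female control tumours. In deleted tumours it measured 7.74, 7.89 and 7.82 in males and 8.02, 7.32 and 7.89 in females. All 6 deleted tumours were below all 6 controls, an order that 1.14% of all tested genes shared. The 3 highest controls were arrays 8, 9 and 15. The difference was -1.07 ± 0.22 (limma adjusted p = 0.03). The call was lost in 10 of 23 alternatives, among them leaving out replicate 8 (-0.96, adjusted p = 0.056), replicates 10, 11, 12, 13, 15 or 17 singly, and arrays 9 and 15 together (-0.90, adjusted p = 0.0925). The difference ran from -1.23 to -0.62 over these alternatives.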

How the data were processed

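Per the submitters' processing notes, the authors normalised the arrays with RMA. The deposited values are log2 intensities of 35556 probe sets, from 1.33 to 14.6, with array medians of 5.88 to 6.07. Raw scans and the RMA version were not used here. The platform annotation gave 1 symbol for 21789 probe sets, several for 1621 and none for 12146, and only the first were named. For each of 19938 genes the probe set with the highest mean was kept. The 17316 genes above the array's 25th percentile in at least 3 arrays were tested.

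With limma 3.58.1 (R 4.3.3), 1 mean per group was fitted to all 18 arrays (lmFit, eBayes with an intensity trend), and 9 contrasts were tested two-sided with Benjamini-Hochberg adjustment over all tested genes at 0.05. Means of tumours weight the sexes equally. The script was tested on simulated data. Array number, 3 per group, limits the precision. The difference of a gene near background may be understated, which was not tested.

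All measured members are named. Of other pathway genes, the 4 largest rises and falls that passed in each comparison are named, and of marker lists up to 3 genes with the largest difference, while colon and small intestine genes were named after their values were seen. The members, lists and arrays to leave out were chosen with earlier results of these data known. Alternatives covered normalisation, filter, probe set choice, array weights, trend, the arrays fitted, each replicate and arrays that stand apart.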

Additional observations from a re-analysis of the deposited data

How the results depend on the processing

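No paired analysis was possible because no replicate number occurs in more than 1 group. In control mice 17 of the 19 members called between tumours and epithelial cells kept their call in all 22 alternatives, the exceptions being Hsd17b7 and Dhcr7, and in deleted mice 14 of 19 did, the exceptions being Pmvk, Mvd, Tm7sf2, Hsd17b7 and Abcg8. None of the called members changed sign in any of these alternatives. Among members that were not called, the sign of the Stat3 difference over both sexes turned in some alternative for 10 of 27. Array weights changed the counts of the deletion comparisons: 2 members higher in epithelial cells, 5 lower in female tumours, 5 lower over both sexes and 5 lower for the tumour effect minus the epithelial effect, each from 0, where 3.26%, 2.73%, 5.47% and 3.81% of all tested genes passed in those directions. Leaving out 1 array at a time gave 0 to 1 members lower over both sexes. Centring each array on its median shifted all genes by at most 0.07 in size. Leaving out arrays 4, 8, 9 and 15 together was chosen after seeing the data, and it leaves replicate 7 as the only male control tumour. Fitting only the compared groups was not run for the tumour effect minus the epithelial effect, which uses every group. With 3 arrays a group, the intervals of Abcg5, Abcg8 and Npc1l1 span more than 2 log2 units in each deletion comparison within a sex.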
